A study of Mus musculus with 10 samples.

Results

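The AP-1 and EGR immediate early factors were taken as the rows of 10 listed genes, Fos, Fosb, Fosl2, Jun, Junb, Jund, Atf3, Egr1, Egr2 and Egr3, out of 18025 genes in the deposited tables. All 10 were found and all 10 passed the filter on low counts, which left 12697 genes for testing. The tissue was gastrocnemius, a calf muscle rich in fast fibres, and both groups were wild-type C57BL/6 mice with a listed age of 8 weeks. COPD was the label of 5 samples (chronic obstructive pulmonary disease, which the series title says was induced by cigarette smoke) and control that of the other 5. No dose or duration of smoke and no hour of collection is stated in the labels. They also leave unsaid whether samples are separate animals, so a p-value here reflects spread among these libraries, part of which may be technical.

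AP-1 is a dimeric transcription factor built from Fos, Jun and ATF proteins, which join through a leucine zipper and bind a short palindromic site. The EGR proteins are zinc finger factors that bind GC-rich sites. Genes of both families are known as immediate early genes: a growth factor, mechanical load, contraction, depolarisation or stress switches them on within minutes, through serum response factor with its ETS partners and through CREB, without new protein synthesis. Their transcripts are also short-lived, and in skeletal muscle exercise and injury are known to raise them.

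The promoter sequences of the 4 genes with the largest fold changes between COPD and control, and that of Egr2 (at 1 of its 5 RefSeq starts) as an EGR gene, are shown because short motifs in such promoters are the elements through which these stimuli are known to act, and the 5 windows differ in which of them they hold. They are the 250 bases before the RefSeq start on GRCm38.p6, read 5′ to 3′ on the gene's strand. Capitals mark the cAMP response element core TGACG (written CGTCA where it lies on the other strand), TATAAA and, in Egr2, the CArG box, the binding site of serum response factor.
Fosb, chr7:19310046-19310295, - strand: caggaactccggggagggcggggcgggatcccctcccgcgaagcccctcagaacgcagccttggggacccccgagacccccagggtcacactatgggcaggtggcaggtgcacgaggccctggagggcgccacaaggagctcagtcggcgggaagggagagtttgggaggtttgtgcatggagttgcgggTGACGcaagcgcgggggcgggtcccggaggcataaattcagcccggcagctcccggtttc
Junb, chr8:84978749-84978998, - strand: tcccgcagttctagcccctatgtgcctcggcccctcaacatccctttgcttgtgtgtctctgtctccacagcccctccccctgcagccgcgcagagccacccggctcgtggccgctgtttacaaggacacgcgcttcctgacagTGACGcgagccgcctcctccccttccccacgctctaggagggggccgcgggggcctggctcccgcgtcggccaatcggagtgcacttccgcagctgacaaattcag
Fos, chr12:85473640-85473889, + strand: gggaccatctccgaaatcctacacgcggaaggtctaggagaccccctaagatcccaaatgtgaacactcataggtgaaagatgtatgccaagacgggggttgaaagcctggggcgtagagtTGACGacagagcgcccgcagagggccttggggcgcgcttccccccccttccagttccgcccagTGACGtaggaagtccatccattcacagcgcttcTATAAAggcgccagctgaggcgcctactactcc
Fosl2, chr5:32136222-32136471, + strand: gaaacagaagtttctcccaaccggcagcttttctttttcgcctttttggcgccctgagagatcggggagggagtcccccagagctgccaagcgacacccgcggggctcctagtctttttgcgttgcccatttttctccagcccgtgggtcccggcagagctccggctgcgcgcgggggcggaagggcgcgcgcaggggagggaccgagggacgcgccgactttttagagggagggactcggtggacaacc
Egr2, chr10:67537619-67537868, + strand: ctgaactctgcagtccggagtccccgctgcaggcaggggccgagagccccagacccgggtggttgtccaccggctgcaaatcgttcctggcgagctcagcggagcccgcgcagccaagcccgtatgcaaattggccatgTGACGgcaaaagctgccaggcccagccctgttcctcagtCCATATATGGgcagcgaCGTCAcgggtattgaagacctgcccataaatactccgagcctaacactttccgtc
RefSeq promoters were found for 8 of the 10 genes, the exceptions being Egr1 and Egr3. TGACG stood on either strand before a start of 5 of the 8 (Fos, Fosb, Junb, Atf3 and Egr2), against 30.0% of the 10114 tested genes with a promoter (17.8% of all 32851 promoters). In Fos the nearer of 2 such elements ended 62 bases before the start and TATAAA ended 28 bases before it. In Fosb and Junb the element ended 56 and 102 bases before the start. The CArG box was found in Egr2 alone of the 8, against 1.46% of the tested genes (1.47% of all promoters), and TATAAA in Fos alone, against 8.40% (12.4%). The full cAMP response element TGACGTCA, the AP-1 site TGANTCA and the EGR site GCGTGGGCG, held by 2.95%, 5.44% and 1.22% of the tested genes (1.55%, 6.75% and 0.536% of all promoters), were found before none of the 8 in these windows. TGACG is contained in TGACGTCA. Fosl2, Jun and Jund held none of these letters in the window. Sites farther than 250 bases before a start were not searched, and Egr2 was searched at several starts. A match describes the letters only, and its absence holds for these windows only.

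Among the 10 genes, 3 AP-1 genes, Fosb, Junb and Fosl2, had the largest separation between COPD and control, and Fos followed. None of the 10 passed a Benjamini-Hochberg adjusted p of 0.05 over all genes in the quasi-likelihood test of edgeR, where 8 genes, 0.0630% of those tested, did. At an unadjusted p under 0.05, 6 of the 10 were listed higher in COPD (Fos, Fosb, Fosl2, Jun, Junb and Jund) and 0 lower, against 7.94% and 6.64% of all genes. These 1008 higher and 843 lower genes became 403 and 2377 when scaled by library size alone, and 251 and 2753 with limma on log2(TPM + 1), and the members on the higher side then numbered 4 under each. All 10 had a log2 fold change above 0 (48.0% of all genes did), with a median of 0.68, against -0.01 over all genes. Without COPD replicate 1 the median was 0.44 and 7 of the 10 were above 0. With a term for Y-linked counts, whose fold changes set COPD replicates 2 and 3 against the controls, the values were 0.45 and 7. In mean TPM, Atf3 and Egr3 were lower in COPD, at 0.950 and 0.968 times the control mean. TPM was lower in COPD for most genes, with a median log2 fold change of -0.18 by limma on log2(TPM + 1). The groups did not overlap for 2 of the 10, Fosb and Fosl2, against 1.29% of all genes that were higher without overlap. The 10 genes are known to answer to shared signals, so these counts are not independent. They were also chosen with earlier results of these data known, so the shares of all genes are no blind reference and test nothing.

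**Figure D1:**
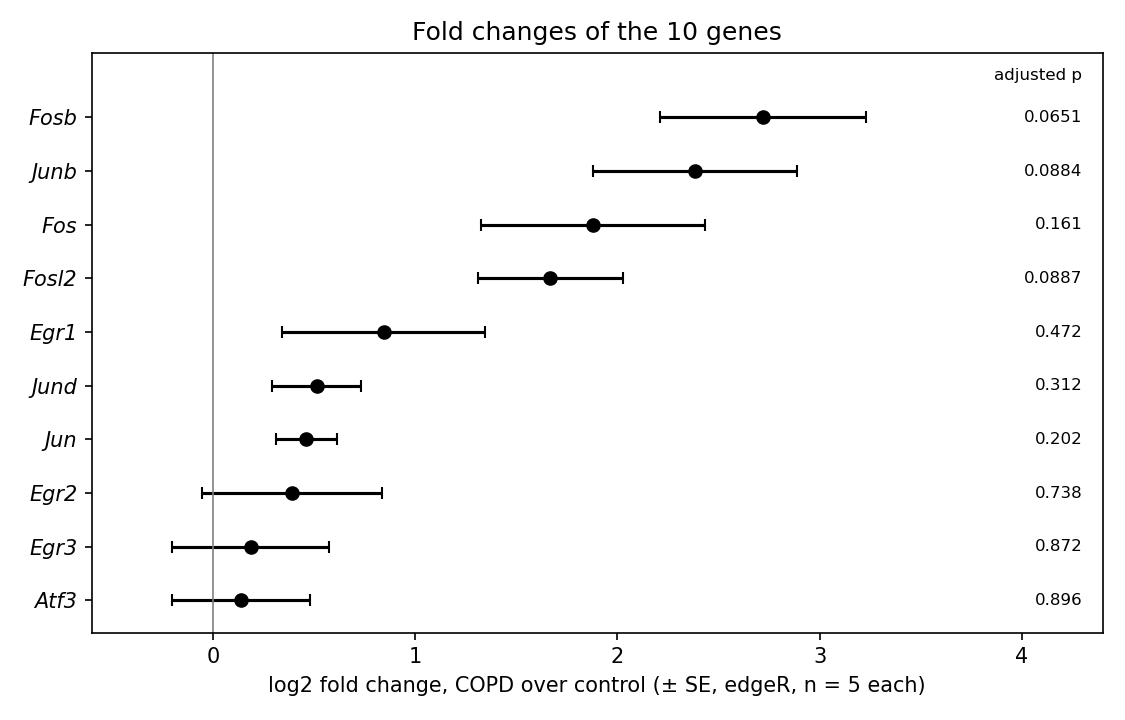
Log2 fold change of each of the 10 genes, COPD over control, with its standard error from edgeR over 5 libraries per group and the p adjusted over all 12697 genes on the right. Fosb, Junb, Fos and Fosl2 lie between 1.67 and 2.72, and the other 6 genes lie below 1.

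The absence of calls depended on the tool and on single libraries. DESeq2, run without the edgeR filter on low counts, called 2.34% of the 17925 genes with any count. It put Fosb, Fosl2 and Junb past the threshold (adjusted p 0.00130, 0.000464 and 0.00332). So did edgeR without COPD replicate 5, which called 3.21% of genes (adjusted p 0.0148, 0.0175 and 0.0138). Y-linked transcripts (Ddx3y, Eif2s3y and Kdm5d) summed to 1118 and 1258 counts in COPD replicates 2 and 3 and 1441 to 1973 in the controls, and to 4, 3 and 3 in COPD replicates 1, 4 and 5. Among the libraries with such counts, which leave COPD replicates 2 and 3 against the 5 controls, the same 3 genes passed by edgeR (adjusted p 0.0120, 0.00634 and 0.00696, with 3.70% of genes called). With a term for these counts they passed too (1.70% called). That term takes up COPD replicates 1, 4 and 5. Its fold changes thus again set COPD replicates 2 and 3 against the controls (log2 fold change of Fosb 3.16, against 3.17). COPD replicates 2 and 3 were the most alike of all pairs of libraries (chi-square over its degrees of freedom 16.9, against up to 115). The spread within COPD among the libraries with Y-linked counts rests on these replicates alone. With limma on log2(TPM + 1) and log2(TPM + 0.1), which called 0.599% and 0.581% of genes, Fosb alone passed of the 8 tested there, Egr2 and Egr3 being under the TPM filter (adjusted p 0.0443 and 0.0486). Fos, Jun, Jund, Atf3 and Egr1 passed under none of the 21 alternatives run, and Egr2 and Egr3 under none of the 19 that gave them a value.

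Of the Fos family, whose proteins bind DNA as partners of Jun proteins, Fosb showed the clearest separation. Its level in CPM, the count scaled to library size with TMM factors, was 23.1, 18.6, 27.0, 6.78 and 8.94 in COPD replicates 1 to 5 and 1.47, 2.96, 4.39, 0.444 and 3.59 in control replicates 1 to 5. The lowest COPD library lay above the highest control. Fosb averaged 16.9 ± 8.78 CPM in COPD and 2.57 ± 1.60 CPM in control (SD, n = 5 each). Its log2 fold change was 2.72 with an SE of 0.51 (edgeR adjusted p = 0.0651); later values after ± beside a log2 fold change are likewise SE. The lowest control value, in replicate 4, rests on 8 counts. Fosl2, which encodes Fra-2, the Fos protein that is made later and lasts longer, was at 47.3, 23.9, 52.3, 13.9 and 15.2 CPM in COPD and 12.2, 10.8, 9.11, 6.71 and 9.06 CPM in control. Again no COPD library reached down to the controls, but COPD replicates 4 and 5 came close to them. The log2 fold change of Fosl2 was 1.67 ± 0.36 (edgeR adjusted p = 0.0887).

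Fos itself, the founding member, was at 148, 72.4, 45.9, 40.6 and 29.0 CPM in COPD and 7.05, 21.0, 32.4, 4.44 and 26.6 CPM in control. COPD replicate 5 lay below control replicate 3, and the other 4 COPD libraries lay above every control. The means were 67.2 ± 48.0 CPM in COPD and 18.3 ± 12.2 CPM in control (SD, n = 5 each), with a log2 fold change of 1.88 ± 0.55 (edgeR adjusted p = 0.161). The controls themselves differed 7.30-fold in Fos and 9.89-fold in Fosb, with control replicates 1 and 4 lowest for both. Fosl2 differed only 1.82-fold among the controls. Without COPD replicate 1 the log2 fold change of Fos was 1.36 ± 0.50.

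**Figure D2:**
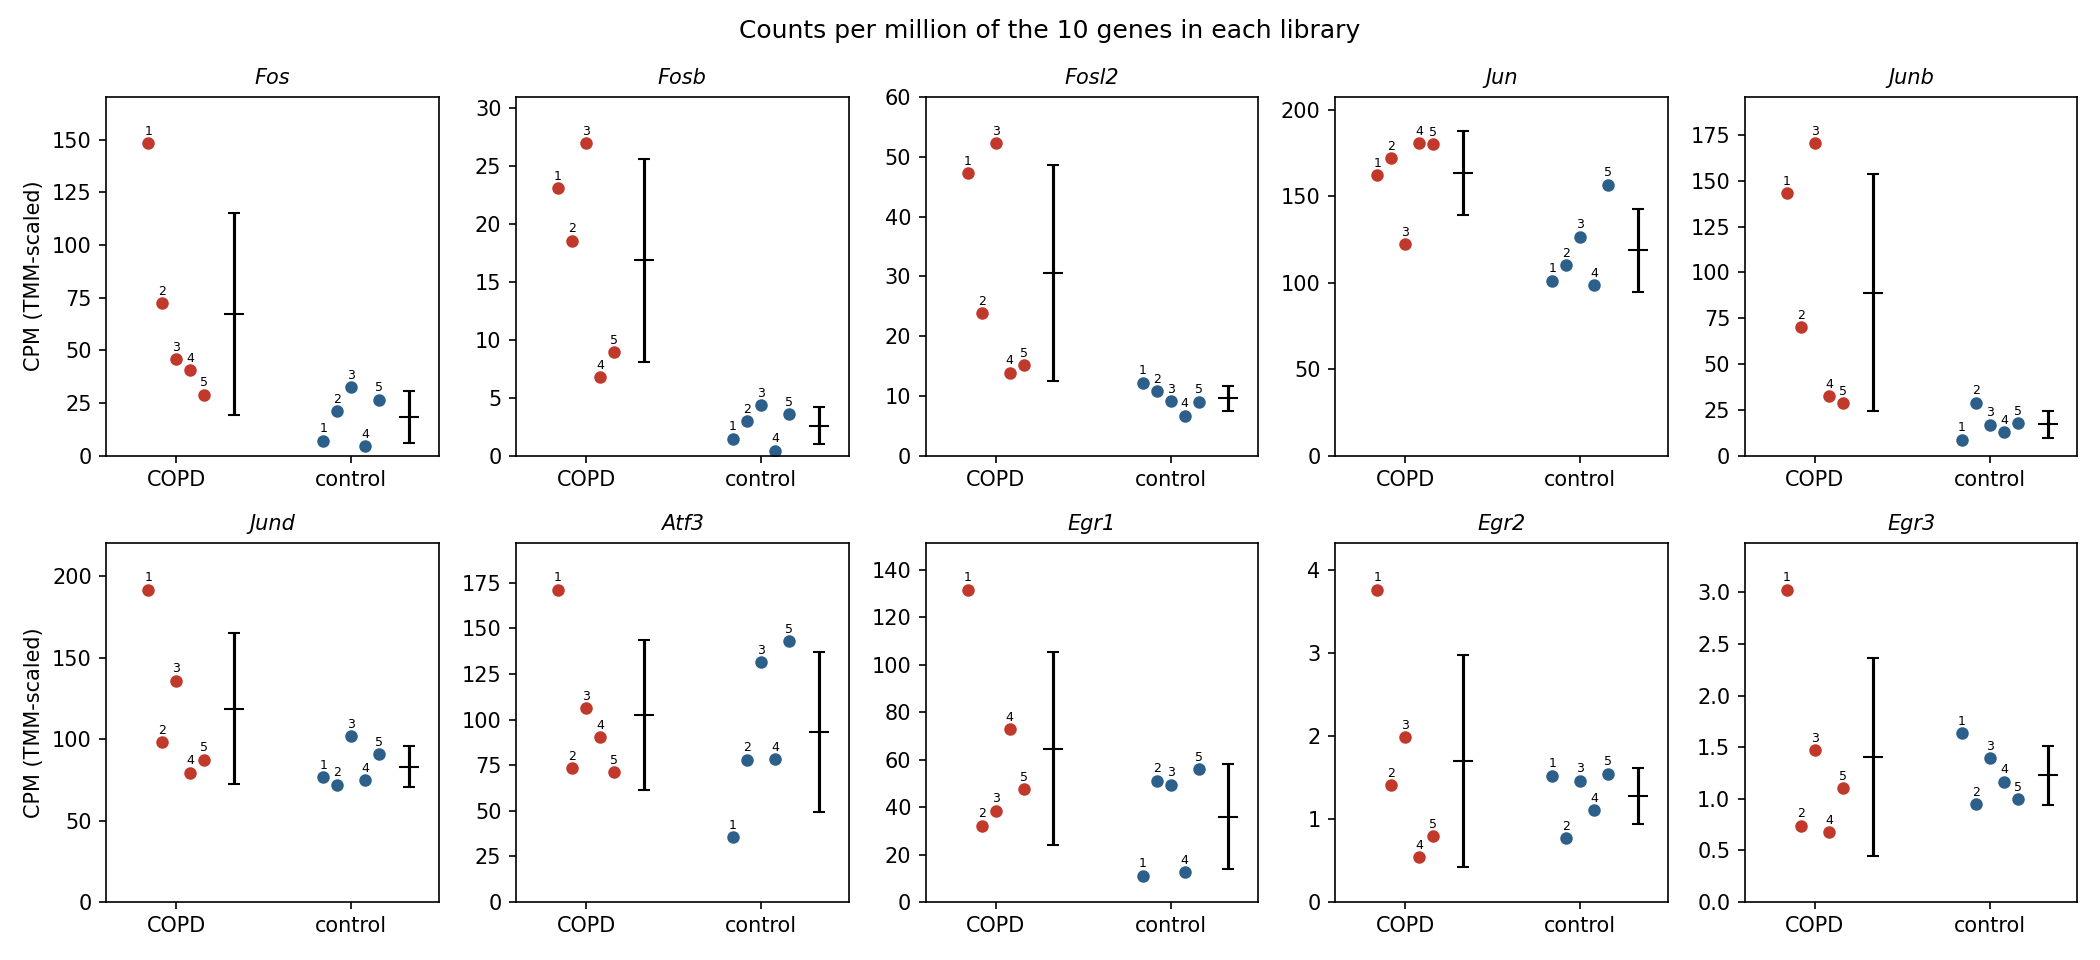
TMM-scaled CPM of each gene in each library on a linear axis that starts at 0, with COPD left and control right. Small digits are replicate numbers, and bars show the mean and SD of 5 libraries. COPD replicate 1 is the highest library for 6 genes (Fos, Jund, Atf3, Egr1, Egr2 and Egr3) and COPD replicate 3 for Fosb, Fosl2 and Junb.

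The Jun genes, which encode partners of the Fos proteins, had values that differed from gene to gene. Junb, which is known to promote fibre growth in mouse muscle, was at 143, 70.0, 170.4, 32.4 and 28.6 CPM in COPD replicates 1 to 5 and 8.69, 29.0, 16.9, 12.6 and 17.8 CPM in control replicates 1 to 5. COPD replicate 5 lay just below control replicate 2, and the other COPD libraries lay above all controls. Its means were 88.9 ± 64.8 CPM in COPD and 17.0 ± 7.62 CPM in control (SD, n = 5 each), with a log2 fold change of 2.39 ± 0.50 (edgeR adjusted p = 0.0884). Junb shares exon sequence with Prdx2, which lies on the other strand (GRCm38 annotation). Whether counting used strand is unknown, so reads of the shared sequence cannot be assigned with certainty. The value of Junb is uncertain to that extent, and the length of the overlap was not measured. Prdx2 had a log2 fold change of 0.26 ± 0.11 (edgeR adjusted p = 0.314).

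Jun, the gene of c-Jun, was at 162, 172, 122, 180.5 and 179.9 CPM in COPD and 101, 110.2, 127, 98.3 and 157 CPM in control. COPD replicate 3, the highest library for Junb, was the lowest COPD library for Jun and lay inside the control range. The log2 fold change of Jun was 0.46 ± 0.15 (edgeR adjusted p = 0.202). In TPM, 0 COPD libraries exceeded the highest control, against 4 in TMM-scaled CPM, so the separation of Jun was seen on 1 of these scales only. Jund, the Jun gene known to be expressed at rest, was at 192, 98.4, 136, 79.5 and 87.4 CPM in COPD and 76.7, 72.1, 102, 74.7 and 90.6 CPM in control. Only COPD replicates 1 and 3 lay above the controls, and the log2 fold change was 0.51 ± 0.22 (edgeR adjusted p = 0.312). Without COPD replicate 1 it was 0.27 ± 0.17. Jun and Jund likewise share exon sequence with the antisense genes Junos and Gm11175, neither of which is a row of the tables.

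Atf3, a stress-induced partner that can repress as a homodimer, had the highest mean level per transcript length of the 10 genes in both groups, and its groups overlapped widely. It was at 171, 73.3, 106, 90.5 and 71.3 CPM in COPD and 35.4, 78.0, 131, 78.3 and 143 CPM in control. Control replicates 3 and 5 lay above every COPD library but replicate 1. The log2 fold change was 0.14 ± 0.34 (edgeR adjusted p = 0.896), and without COPD replicate 1 it was -0.13 ± 0.33.

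The EGR genes did not separate the groups. Egr1, the most widely studied of them, was at 132, 32.1, 38.4, 73.0 and 47.5 CPM in COPD and 11, 51.1, 49.4, 12.5 and 56.0 CPM in control. The controls fell into 2 low libraries, replicates 1 and 4, and 3 libraries between 49.4 and 56.0 CPM, within the range of COPD replicates 2 to 5. Egr1 averaged 64.5 ± 40.7 CPM in COPD and 36.0 ± 22.3 CPM in control (SD, n = 5 each), with a log2 fold change of 0.84 ± 0.50 (edgeR adjusted p = 0.472). It was 0.41 ± 0.47 without COPD replicate 1, and -0.02 ± 0.60 among the libraries with Y-linked counts. Egr2, a factor of peripheral nerve myelination, was at 3.77, 1.41, 1.98, 0.543 and 0.796 CPM in COPD and 1.52, 0.769, 1.46, 1.11 and 1.55 CPM in control. Egr3, needed for muscle spindles in the mouse, was at 3.03, 0.740, 1.47, 0.678 and 1.10 CPM in COPD and 1.64, 0.947, 1.396, 1.16 and 0.994 CPM in control. In both genes COPD replicate 1 was highest and COPD replicate 4 lowest of all 10 libraries, so that the COPD values enclosed the controls. These levels rest on 8 to 51 counts per library for Egr2 and 10 to 41 for Egr3. Their log2 fold changes were 0.39 ± 0.45 and 0.19 ± 0.39 (edgeR adjusted p = 0.738 and 0.872).

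In TPM, which scales by transcript length and so allows levels of different genes to be set side by side, the order in control muscle ran from Atf3 (84.2 ± 39.3 TPM) through Jun (66.3 ± 14.8), Jund (51.3 ± 5.87), Egr1 (20.8 ± 13.0), Junb (16.7 ± 7.80) and Fos (15.3 ± 9.75). Below these lay Fosl2 (2.89 ± 0.674 TPM), Fosb (1.21 ± 0.719), Egr2 (0.850 ± 0.210) and Egr3 (0.566 ± 0.133; SD, n = 5). Control ranges of neighbours overlapped except between Jund and Egr1, Fos and Fosl2, and Fosl2 and Fosb. In COPD muscle the order was Atf3 (80.0 ± 28.3 TPM), Jun (79.2 ± 13.4), Junb (74.2 ± 53.7), Jund (63.0 ± 21.7), Fos (48.2 ± 31.6), Egr1 (32.1 ± 18.7), Fosl2 (7.86 ± 4.56), Fosb (6.94 ± 3.55), Egr2 (0.934 ± 0.707) and Egr3 (0.548 ± 0.332). Junb thus stood in the third place in COPD and the fifth in control.

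Which partner supplied the transcripts also varied. Summed over Fos, Fosb and Fosl2, the Fos family reached 122, 63.9, 59.8, 38.2 and 30.7 TPM in COPD replicates 1 to 5 and 10.5, 23.1, 28.7, 6.13 and 28.5 TPM in control replicates 1 to 5. Every COPD library exceeded every control in this sum. Fosb made up 7.34 to 19.3% of it in COPD and 3.59 to 6.74% in control, again without overlap, while Fos made up 57.5 to 83.2% in COPD and 57.9 to 85.0% in control. The Jun family summed to 282, 185, 281, 165 and 168 TPM in COPD and 114, 138, 133, 116 and 169.8 TPM in control. Junb made up 40.1, 30.4 and 52.2% of it in COPD replicates 1 to 3 and 17.4 and 15.3% in COPD replicates 4 and 5, against 7.56 to 21.1% in control. The share of Jund was 26.4 to 34.0% in COPD and 33.2 to 42.3% in control. These sums and shares describe the libraries and were not tested.

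**Figure D3:**
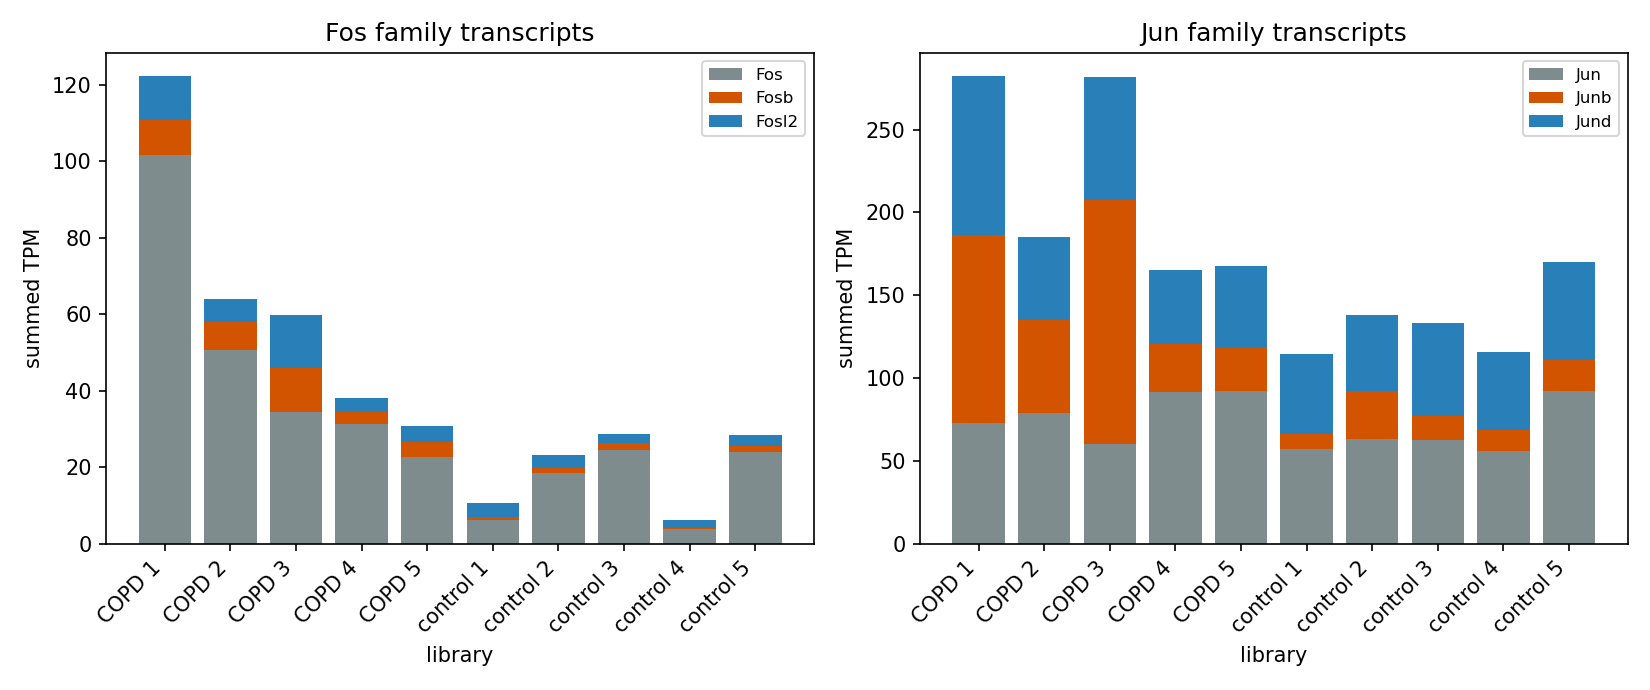
Summed TPM of the Fos family (left) and Jun family (right) in each library, with COPD libraries before controls and one colour per gene. The Fos family sum is 30.7 to 122 TPM in COPD and 6.13 to 28.7 TPM in control, and the Junb segment is largest in COPD replicates 1 and 3.

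The libraries of each group were far from uniform. By TMM-scaled CPM, COPD replicate 1 was highest in 6 genes, COPD replicate 3 in 3 and COPD replicate 4 in 1 (Jun). On this scale no control was highest for any of the 10. In TPM, control replicate 5 was highest for Jun (92.21, against 92.19 in COPD replicate 5) and for Atf3 (137, against 126 in COPD replicate 1). By CPM, control replicate 4 was the lowest in 4 (Fos, Fosb, Fosl2 and Jun) and control replicate 1 in 3 (Junb, Atf3 and Egr1). Control replicate 2 was lowest in Jund and COPD replicate 4 in Egr2 and Egr3. In TPM the lowest library was COPD replicate 4 for Jund and COPD replicate 2 for Egr3. COPD replicates 1 and 3 shared high Fosb, Fosl2 and Junb but differed in Egr1, at 132 and 38.4 CPM. Relative to each gene's mean over the 10 libraries, Fosb, Fosl2 and Junb stood at 2.26, 1.72 and 2.36 on the log2 scale in COPD replicate 3, and Egr1 at -0.06.

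**Figure D4:**
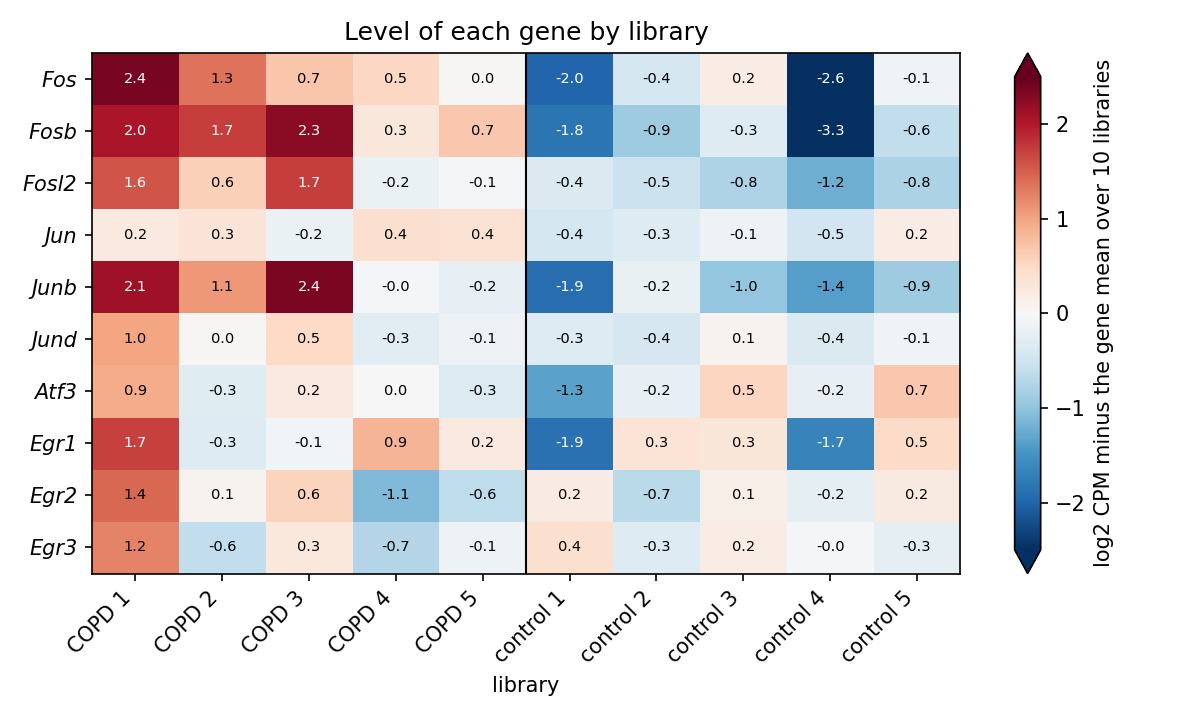
Log2 CPM of each gene in each library minus the gene's mean over all 10 libraries, with COPD left of the line and control right. Values run from -3.31 (Fosb in control replicate 4) to 2.38 (Fos in COPD replicate 1), and colours stop at the ends of the scale.

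To see which genes varied together apart from the group difference, the group means were removed from log2 CPM and the 45 pairs of genes were correlated over the 10 libraries. Of the 45, 40 had a Pearson r above 0, with a median of 0.54. Without the 2 libraries farthest from the median of 1 gene of each pair, these values were 36 and 0.44. Pairs of other genes were not correlated, so these counts have no reference. Over all 10 libraries and after adjustment over the 45 pairs, 1 passed the two-sided exact permutation test within groups. This was Jund with Egr2 (Pearson r = 0.93, adjusted p = 0.0438; Spearman rho = 0.92, adjusted p = 0.120). Its r was 0.89 without COPD replicate 1 and control replicate 3, the libraries farthest from the median of Jund, and it no longer passed (permutation adjusted p = 0.312). The values of Egr2 in this pair rest on 8 to 51 counts. Summed Schwann cell markers were at 384, 107, 236, 113 and 139 CPM in COPD replicates 1 to 5. In control replicates 1 to 5 they were at 243, 130, 153, 124 and 247 CPM. The part of nerve tissue within the samples in this pair was not tested.

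The other pairs did not pass the adjusted threshold and are given as values. Fos had r = 0.85 with Fosb (rho = 0.78, permutation adjusted p = 0.109 for r and 0.120 for rho) and r = 0.82 with Egr1 (rho = 0.84, permutation adjusted p = 0.113 and 0.120). Fosl2 had r = 0.82 with Junb (rho = 0.79, permutation adjusted p = 0.132 and 0.139) and 0.11 with Egr1 (rho = 0.15, permutation adjusted p = 0.767 and 0.761). Jun had an r below 0 with 5 genes, the lowest with Fosl2 (r = -0.49, rho = -0.59, permutation adjusted p = 0.232 and 0.171). Without the 2 libraries farthest from the median the Fos pairs had r = 0.73 with Fosb and 0.64 with Egr1, and Fosl2 had r = 0.40 with Junb. COPD replicate 1 was among the 2 libraries left out in all 3 of these pairs. All pairs share the libraries and their scaling factors.

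**Figure D5:**
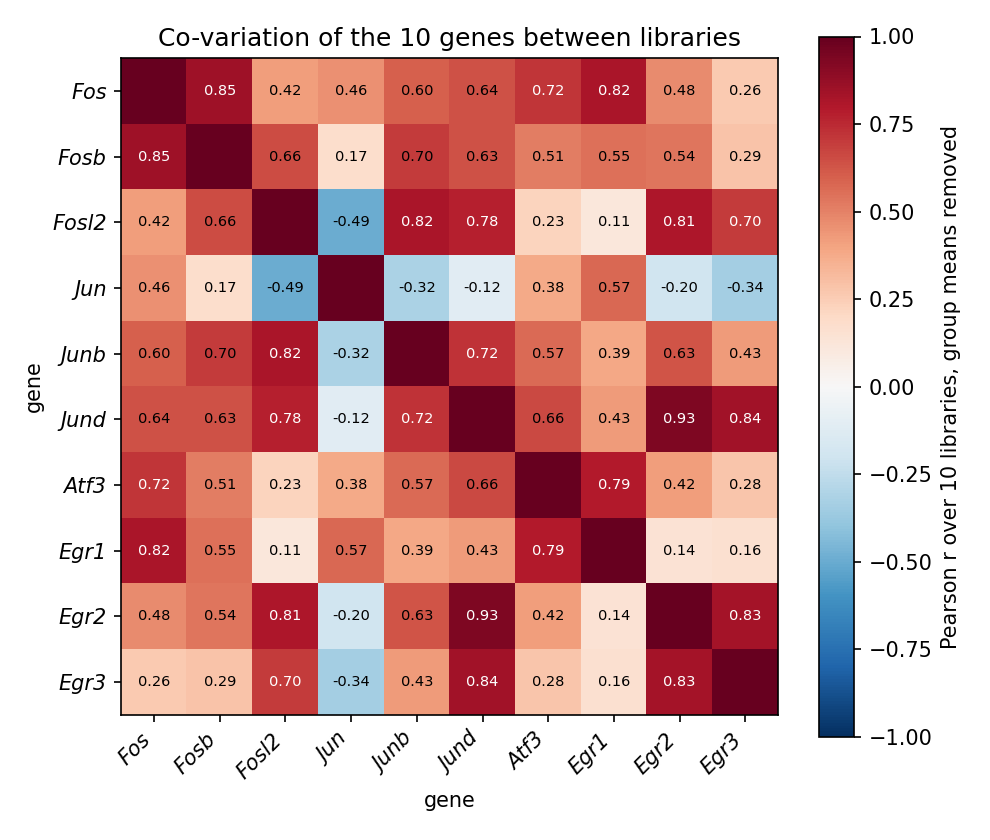
Pearson r between each pair of the 10 genes over 10 libraries, from log2 CPM with group means removed. The highest r is 0.93 (Jund with Egr2) and the lowest -0.49 (Jun with Fosl2), and all 5 values below 0 belong to Jun.

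The genes whose library-to-library pattern was most like the mean pattern of the 10 were sought among 9028 other genes with a mean of at least 5 CPM. They were Usp10, a deubiquitinase (r = 0.91), Uckl1 (0.90), the Fanconi anaemia gene Fance (0.90), the zinc finger gene Zfp975 (0.90), the ubiquitin-conjugating enzyme gene Ube2d1 (0.90) and Nab2 (0.89). Spearman's rho for the 6 ran from 0.83 to 0.93, and r without COPD replicate 1 and control replicate 4 ran from 0.70 to 0.80. They were picked for their likeness, so no p is given for it. Nab2 shares exon sequence with Nemp1 and Stat6 on the other strand, and Uckl1 with Zfp512b on its own strand, so their counts are uncertain to that extent. Their log2 fold changes between the groups were small, from -0.29 to 0.22, and their edgeR adjusted p ran from 0.319 to 0.762. Nab2 encodes a corepressor that binds EGR proteins and is itself induced by them. It was at 11.96 CPM in COPD replicate 1 and 6.38 to 7.72 in COPD replicates 2 to 5, against 5.47 and 5.88 in control replicates 1 and 4 and 7.40 to 8.58 in control replicates 2, 3 and 5.

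The list of 37 other immediate early genes was also made with earlier results of these data known. Of these 37, 35 were tested and 0 passed over all genes by edgeR. Their log2 fold change was above 0 in 27 of the 35, an unadjusted p under 0.05 was reached by 16 on the higher side and 1 on the lower (7.94% and 6.64% of all genes), and the median log2 fold change was 0.50. Maff, a small Maf protein that pairs with Fos, was at 33.3, 22.0, 24.7, 30.9 and 4.78 CPM in COPD replicates 1 to 5 and 3.67 to 6.21 CPM in control. Zfp36, which destabilises messenger RNA and limits immediate early transcripts, was at 158, 118, 46.5, 59.5 and 35.2 CPM in COPD and 21.7 to 25.9 CPM in control. The MAP kinase phosphatase gene Dusp1, whose exons overlap those of Ergic1 on the opposite strand, was at 86.3 to 156 CPM in COPD and 40.8 to 67.9 CPM in control. The groups did not overlap for 3 of the 35 (1.29% of all genes were higher without overlap), namely Zfp36, Dusp1 and Nfkbia. Nfkbia, the gene of the NF-kappa-B inhibitor I-kappa-B alpha, was named after its values were seen and averaged 41.3 ± 8.58 CPM in COPD and 26.5 ± 4.63 CPM in control (SD, n = 5 each). The edgeR adjusted p of Maff, Zfp36, Dusp1 and the clock gene Per1 was 0.0611, 0.0710, 0.0884 and 0.0973.

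Of the other AP-1 proteins and their partners, 6 of 10 were tested, 0 passed by edgeR and 1 was higher at an unadjusted p under 0.05 (7.94% of all genes), with a median of -0.22. That was Jdp2, a repressor of Jun, at 7.34 ± 1.94 CPM in COPD and 4.86 ± 1.05 CPM in control (SD, n = 5 each). Its log2 fold change was 0.59 ± 0.21 (edgeR adjusted p = 0.230). Atf7, Creb5 and Atf2 had log2 fold changes of -0.26 ± 0.12, -0.41 ± 0.19 and -0.17 ± 0.11. The EGR corepressor genes Nab1 and Nab2 had -0.07 ± 0.15 and 0.22 ± 0.19, and Egr4 did not pass the filter on low counts. Of 30 upstream genes (serum response factor, its ETS partners, CREB and the MAP kinases), 27 were tested, 0 passed, and an unadjusted p under 0.05 was reached by 3 on the higher side and 1 on the lower (7.94% and 6.64% of all genes), with a median of -0.03. Rps6ka5, the kinase MSK1, which phosphorylates CREB, had 0.58 ± 0.21 (edgeR adjusted p = 0.236), and the kinase genes Map2k2 and Map2k1 had 0.26 ± 0.10 and -0.16 ± 0.09.

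Elk3, an ETS partner of serum response factor that represses in its basal state, set COPD replicates 1 to 3 apart from COPD replicates 4 and 5, as did the values of Fosb, Fosl2 and Junb. COPD replicates 1 to 3 had 10.04, 11.02 and 9.63 CPM, while COPD replicates 4 and 5 had 21.4 and 21.6 CPM, against 18.7 to 24.3 CPM in control. The log2 fold change was -0.57 ± 0.23 (edgeR adjusted p = 0.291). This split of the COPD libraries was not a planned comparison, and how many of all genes show it was not counted. Any link of Elk3 to Fosb, Fosl2 and Junb was not tested. Exons of Elk3 overlap those of Cdk17 on the opposite strand. Summed endothelial markers, from cells known to express Elk3, were at 285, 265 and 284 CPM in COPD replicates 1 to 3 and 444 and 380.3 CPM in COPD replicates 4 and 5, against 269 to 458 CPM in control, and their part in this pattern was not tested.

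Of 16 AP-1 target genes listed, 8 were tested, 0 passed by edgeR and 1 was higher at an unadjusted p under 0.05 (7.94% of all genes), with a median of 0.20. That was Plaur, the urokinase receptor gene (log2 fold change 0.63 ± 0.24, adjusted p = 0.268). Hmox1, Plau and Spp1 had 0.42 ± 0.23, -0.49 ± 0.31 and 0.94 ± 0.70. Timp1, Mmp3, Mmp10, Mmp13, Lif, Il6 and Ccl2 did not pass the filter on low counts. Of 9 EGR target genes, 8 were tested, 0 passed by edgeR and 1 was lower at an unadjusted p under 0.05 (6.64% of all genes), with a median of 0.14. That was the tissue factor gene F3 (log2 fold change -0.54 ± 0.22, adjusted p = 0.285). Thbs1 had 0.48 ± 0.23 and Fgf2 -0.18 ± 0.17. Of 14 circadian clock genes, which set the hour of day in tissues, 2 passed by edgeR over all genes (0.0630% of all genes did), 1 on each side. These were Npas2 (2.18 ± 0.34, adjusted p = 0.0425) and Dbp (-2.04 ± 0.22, adjusted p = 0.00924), and Per3 and Clock had -1.26 ± 0.24 and 0.58 ± 0.12 (adjusted p = 0.0710 and 0.0795). Dbp shares exon sequence with Sphk2 on the other strand. The part of these clock genes in the values of the 10 genes was not tested.

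Library totals ran from 14085854 to 17251034 expected counts (two-sided exact permutation p = 0.119 between the groups). TMM factors differed (0.948 ± 0.0196 in COPD and 1.06 ± 0.0619 in control, SD, n = 5 each; exact permutation p = 0.0159, adjusted p = 0.0317 over both). Fibre markers were abundant in every library, at 208770 to 241346 CPM in COPD and 132590 to 237751 CPM in control for 8 genes, and T and B cell markers were near 0. The 6 neutrophil markers summed to 72.1 CPM in COPD replicate 5 and 1.92 to 7.42 CPM in the other COPD libraries, and to 274 CPM in control replicate 1 and 4.97 to 15.6 CPM in the other controls. Control replicate 1 was the lowest library for Junb, Atf3 and Egr1, and COPD replicate 5 is the library without which Fosb, Fosl2 and Junb passed. In bulk muscle, fewer cells of a type and less RNA per cell cannot be told apart. Summed markers of 13 cell types were compared by exact permutation tests and 0 passed after adjustment, with 2 at an unadjusted p under 0.05. The smallest p these permutation tests can give is 0.00794, which would not pass over 13 lists for 1 list alone. That 0 passed therefore does not show that the groups were alike in cell types. The 6 satellite cell markers summed to 31.7 to 85.3 CPM in COPD and 24.3 to 34.4 CPM in control (exact permutation p = 0.0159, adjusted p = 0.155). Sdc4, at 17.1 to 73.0 CPM in COPD and 11.1 to 19.3 CPM in control, was the most abundant, and Pax7, the defining marker, was at 0.814 to 2.39 CPM in COPD and 1.71 to 3.14 CPM in control. The 5 tendon markers summed to 71.6 to 194 CPM in COPD and 34.0 to 82.2 CPM in control (exact permutation p = 0.0238, adjusted p = 0.155), and were highest in COPD replicate 1. The part of these markers in the values of the 10 genes was not tested.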

How the data were processed

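Gastrocnemius messenger RNA was measured in 5 COPD and 5 control samples, grouped by their titles. The authors deposited expected counts per gene (estimates, of which 30.7% are not whole) and TPM for the same 18025 genes. HISAT2 2.0.4, Bowtie2 2.2.5, RSEM 1.2.12, DESeq2 1.4.5 and build mm9 are named, per the submitters' processing notes, without role or order. Any use of strand in counting: not given in the sources used here.

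Expected counts were rounded, filtered with filterByExpr, scaled by TMM and tested with edgeR 4.0.16 (glmQLFit, glmQLFTest) in R 4.3.3 over 12697 genes, adjusting p by Benjamini-Hochberg (threshold 0.05). The SE of a log2 fold change is its absolute value over the root of F. Correlations used log2 CPM (prior count 2) and 14400 within-group arrangements. Alternatives were DESeq2 1.42.0, limma 3.58.1 on log2 TPM, other scalings and filters, a replicate block, Y-linked terms and leaving out each library. Library measures and summed markers were compared over all 252 relabelings, whose smallest p is 0.00794. Procedures were tested on simulated data.

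Named beside the 10 genes were up to 4 genes of each list with the smallest p and a mean of at least 1 CPM, and the 6 most like the members. Members and lists were chosen with earlier results of these data known. Lists share Per1, Nab2 and Fosl1. Mkl1, Mkl2, Cyr61, Ctgf and Emr1 had no row under these symbols and were not analysed here. Promoters are RefSeq, GRCm38.p6, another build than mm9. Exon overlaps are from GENCODE M21. The result of 1 of the 13 marker lists is not reported here. Every pair of libraries differed beyond counting error (chi-square over its degrees of freedom, 16.9 to 115). At these totals 1 CPM stands for about 14.1 to 17.3 counts before TMM scaling.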

Additional observations from a re-analysis of the deposited data

Results flagged for a closer look

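Among 80 groups of 5 libraries (40 genes in COPD and in control), 7 held a library far from the other 4. None of the 7 concerned the 10 AP-1 and EGR genes. Chance would flag about 1 in 20 groups of unselected genes. Beside the 10, genes were picked by small p or by likeness, so that rate does not apply to them. Nab2 and Uckl1 were among those picked for likeness to a mean pattern in which COPD replicate 1 lay far from the median. COPD replicate 1 stood apart from the other COPD libraries in Nab2 (11.96 CPM, against 6.38 to 7.72), Uckl1 (45.78 CPM, against 31.2 to 35.4) and Dbp (51.91 CPM, against 24.4 to 30.2). Spp1, which encodes osteopontin, was at 17.42 CPM in COPD replicate 3, against 1.26 to 3.87 in the other COPD libraries, and at 6.546 CPM in control replicate 1, against 0.998 to 2.38 in the other controls. Fgf2, whose exons overlap those of Nudt6 on the opposite strand, was at 10.16 CPM in COPD replicate 5, against 7.10 to 7.87 in the other COPD libraries. Clock was at 18.29 CPM in control replicate 5, against 13.1 to 14.3 in the other controls.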

How the results depend on the processing

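Fos, Fosb, Fosl2, Jun, Junb and Jund kept a log2 fold change above 0 under all 21 alternatives (Fosb 1.79 to 3.17, Junb 1.86 to 2.83, Fosl2 1.05 to 2.00, Fos 1.36 to 2.18). Atf3 turned to -0.00053 with library size alone, -0.053 with Y-linked counts as a term, -0.045 among libraries with Y-linked counts, and ranged from -0.13 (without COPD replicate 1) to 0.35 when single libraries were left out, being -0.07 without control replicate 1. Egr1 turned to -0.028 and -0.017 under the same term and libraries, and Egr3 to -0.15 and -0.14. The fold changes of both settings compare COPD replicates 2 and 3 with the controls. Egr3 was also -0.037 with limma on log2(TPM + 1) without a filter and -0.30 (without COPD replicate 1) to 0.36 when single libraries were left out, and Egr2 -0.13 (without COPD replicate 1) to 0.62. The cause was not tested. Members past the threshold numbered 0 by edgeR, 3 with DESeq2, 3 with the Y-linked term, 3 among libraries with Y-linked counts, 1 with limma on log2(TPM + 1) or log2(TPM + 0.1), and 0 to 3 when single libraries were left out (3 without COPD replicate 5). Over all genes the 8 calls became 420 with DESeq2, 216 and 488 with the Y-linked term and libraries, 17 without the count filter, 67 and 65 with limma on log2(TPM + 1) and log2(TPM + 0.1), 2 with limma without a filter, and 0 (without COPD replicate 2, where 1510 genes had an unadjusted p under 0.05) to 410 (without COPD replicate 5) when single libraries were left out. By library size alone the median of all genes was -0.17, and under limma with the filter -0.18 and -0.21. With the replicate number as a block 7 genes and 0 members passed. Same-numbered samples correlated at -0.14 to 0.04 over genes after removal of group means. Other pairs of samples were not compared, so these values cannot decide whether the number marks a pairing. Of the 45 pairs, 1 passed, against 15 without removal of group means, 0 on log2(TPM + 1) and 0 without the 2 farthest libraries. By CPM, 6 of 10 genes kept their place in the order of levels. Egr2 and Egr3 rest on 51 counts or fewer per library.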
